A study of Homo sapiens with 13 samples.

Results

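The transcripts described here are those of 9 human aldehyde dehydrogenase genes in breast epithelial cells: ALDH3A1, ALDH1A3, ALDH1A1, ALDH3A2, ALDH2, ALDH7A1, ALDH9A1, ALDH3B1 and ALDH1B1. They were found by gene symbol, and each matched 1 of the 38369 gene rows of the deposited tables. The set was chosen in part from the FPKM of its members in these libraries, and their fold changes between these groups, which were already known, so the values and calls below are a description. The libraries were polyA-selected RNA-seq of MCF10A, an immortal human breast epithelial line that does not form tumours and that the labels call breast cancer. Parental cells were harvested 72 h after transduction with LINC00520, a long intergenic RNA (2 libraries), or as untransduced controls that the labels also call mock-transduced (3 libraries). Cells of its derivative MCF10A-Src, which carry a Src kinase that tamoxifen activates, were sampled at 0 h (1 library), 4 h (2), 12 h (1) and 36 h (2) of tamoxifen. All the cultures were grown with horse serum, hydrocortisone, cholera toxin, EGF and insulin, and all derive from a single line. There were no time-matched cells without tamoxifen, so Src activity and time in culture cannot be told apart, and 2 libraries of a control lincRNA were not analysed here, so LINC00520 and transduction itself cannot be told apart. Nothing in the labels says that libraries of a group came from separate cultures.

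Aldehyde dehydrogenases oxidise reactive aldehydes to carboxylic acids with NAD+ or NADP+. ALDH1A1 and ALDH1A3 turn retinaldehyde into retinoic acid, ALDH2 and ALDH1B1 work in the mitochondrial matrix on acetaldehyde and other short aldehydes, and the ALDH3 enzymes clear longer fatty and aromatic aldehydes, including products of lipid peroxidation. ALDH7A1 acts in lysine breakdown and ALDH9A1 in the making of carnitine. In breast cells the family is best known for the enzyme activity used to sort stem-like cells, to which ALDH1A1 and ALDH1A3 are the usual contributors.

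Library depth ranged from 12.6 to 52.3 M fragments. The LINC00520 row held 1122 and 1031 fragments in LINC00520 libraries, against 5, 6 and 2 fragments in untransduced libraries. All 9 listed breast epithelial markers had FPKM of 1 or more in every library. Summed marker FPKM in the time course, in the order of time, was 3926, 6411 to 6562, 4844 and 2764 to 2782 for the epithelial list. For the list of 6 immune markers it was 10.3, 13.4 to 15.1, 17.9 and 45.3 to 66.0, with CD3E at 0 in the libraries before 36 h and 2 of 6 markers at FPKM of 1 or more in every library. For the list of 7 fibroblast markers it was 39.1, 41.4 to 46.9, 51.9 and 87.2 to 102.6, with COL1A2 at 0 throughout and 2 of 7 markers at FPKM of 1 or more in every library. Endothelial and hepatocyte marker sums were at most 0.0153 and 0.135 FPKM in these libraries. The part of the marker shift at 36 h in the values below was not tested, and in bulk RNA fewer cells of a type and less RNA per cell cannot be told apart.

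Levels of different genes were compared in deposited FPKM (fragments per kilobase of transcript and per M fragments). In LINC00520 cells the order was ALDH7A1 (79.5 ± 2.75 FPKM, SD, n = 2), ALDH3A2 (58.3 ± 0.347), ALDH9A1 (53.1 ± 0.542), ALDH1B1 (30.0 ± 0.557) and ALDH3A1 (28.8 ± 1.14). ALDH3B1 (15.2 ± 0.912) and ALDH1A3 (15.2 ± 0.267) followed and overlapped. In untransduced cells the order was ALDH7A1 (80.5 ± 1.54 FPKM, SD, n = 3), ALDH3A2 (69.8 ± 1.25), ALDH9A1 (56.8 ± 1.99), ALDH3A1 (46.3 ± 1.00), ALDH1B1 (26.3 ± 0.139), ALDH3B1 (25.2 ± 0.715) and ALDH1A3 (13.4 ± 0.464). These 7 neighbours did not overlap in untransduced libraries, and ALDH2 and ALDH1A1 lay at the bottom in both groups.

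In MCF10A-Src cells the leading gene changed with time. At 0 h ALDH3A2 was highest (73.2 FPKM), followed by ALDH3A1 (59.4), ALDH9A1 (43.5), ALDH7A1 (34.1), ALDH1A3 (31.4), ALDH1B1 (15.2) and ALDH3B1 (5.42), from 1 library. At 4 h ALDH1A3 stood first at 174 ± 27.1 FPKM (SD, n = 2), above ALDH3A1 (68.7 ± 10.6) and ALDH3A2 (65.7 ± 10.1), which overlapped. Below them came ALDH9A1 (42.8 ± 1.77), ALDH1B1 (38.1 ± 1.60), ALDH7A1 (23.8 ± 4.37) and ALDH3B1 (5.98 ± 0.603), without overlap. At 12 h ALDH9A1 led in 1 library (46.5 FPKM), with ALDH3A2 (36.1), ALDH3A1 (35.7), ALDH1A3 (31.1), ALDH7A1 (27.0), ALDH1B1 (14.7) and ALDH3B1 (3.00) after it. At 36 h ALDH7A1 (51.3 ± 18.95 FPKM, SD, n = 2) and ALDH9A1 (47.0 ± 2.54) led and overlapped. ALDH3A2 (27.6 ± 0.870), ALDH1A3 (9.08 ± 2.10), ALDH1B1 (6.94 ± 0.390), ALDH3B1 (2.81 ± 0.178) and ALDH3A1 (2.40 ± 0.172) came after them, and these neighbours did not overlap.

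Summed over the 19 human aldehyde dehydrogenase genes measured, FPKM was 366.6 and 365.5 in LINC00520 libraries, against 403.5, 409 and 408 in untransduced libraries. In the time course the sum was 360 at 0 h, 488 and 566 at 4 h, 287 at 12 h, and 209.7 and 236 at 36 h. ALDH1A3 made up 8.72% of that sum at 0 h, 31.7% and 34.04% at 4 h, 10.9% at 12 h, and 5.04% and 3.22% at 36 h. ALDH3A1 made up 16.5% at 0 h, 12.5% and 13.5% at 4 h, 12.4% at 12 h, and 1.09% and 1.07% at 36 h. Within the time course the family sum was thus highest in both 4 h libraries and lowest in both 36 h libraries, with ALDH1A3 holding the largest share at 4 h.

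**Figure D1:**
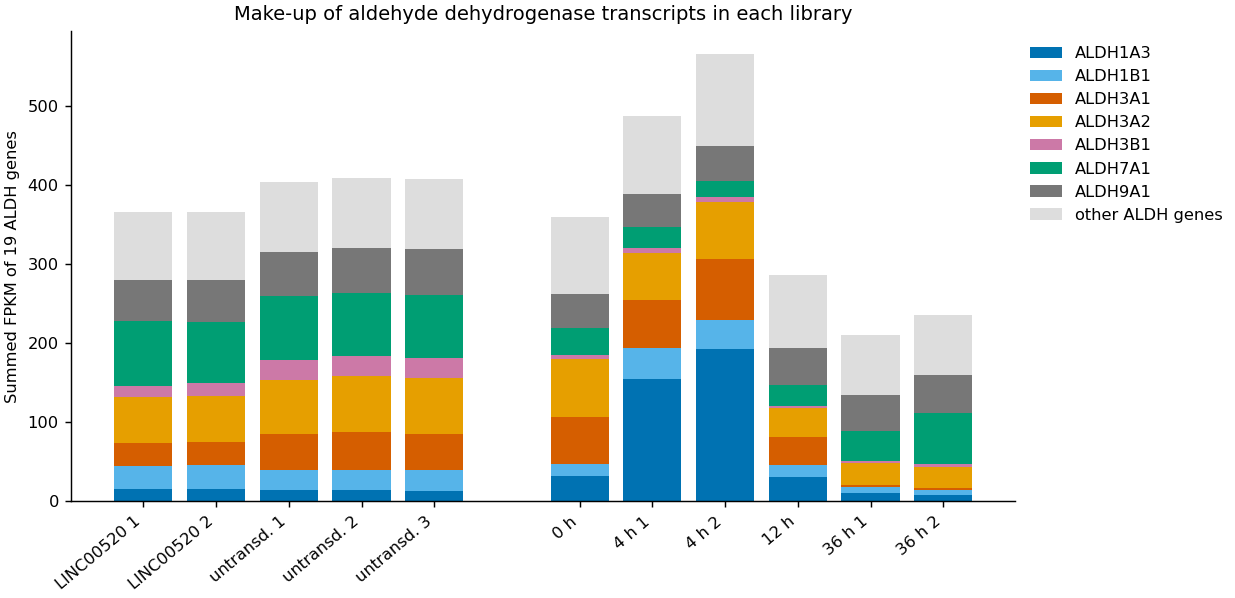
Summed deposited FPKM of the 19 aldehyde dehydrogenase genes in each library (bars; y axis in FPKM, from 0), split by gene, with LINC00520 and untransduced libraries on the left and tamoxifen libraries on the right. The light grey top segment holds the remaining family genes, ALDH1A1 and ALDH2 among them, and the left and right sets were scaled separately by the authors. The ALDH1A3 segment is 31.7% and 34.04% of the bar in the 4 h libraries, and the ALDH3A1 segment is about 1.09% and 1.07% in the 36 h libraries.

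Below, a gene's own level across libraries is given in CPM (fragments per M fragments after TMM scaling, edgeR's correction for library composition). Calls are from edgeR's quasi-likelihood (QL) test over all genes with an adjusted p threshold of 0.05. ALDH1A3 (row ucscCodingXLOC_007991) and ALDH1B1 (row ucscCodingXLOC_024172) rose together at 4 h, stood near the 0 h level in the single 12 h library, and were below it at 36 h. The hg19 locus of the ALDH1A3 row is chromosome 15, 101420009 to 101633228, a span it shares with the rows of LRRK1, linc-LRRK1-AS and linc-ALDH1A3-AS. That of ALDH1B1 is chromosome 9, 38392702 to 38398655. Their promoters (RefSeq, GRCh38.p14, 250 bases before to 50 after the start, both on the plus strand) are shown because these genes were the pair that peaked at 4 h. Capitals mark GCGTG, the core bound by the AHR-ARNT receptor pair, or CACGC, its reverse complement.
ALDH1A3 (chr15:100879581-100879880): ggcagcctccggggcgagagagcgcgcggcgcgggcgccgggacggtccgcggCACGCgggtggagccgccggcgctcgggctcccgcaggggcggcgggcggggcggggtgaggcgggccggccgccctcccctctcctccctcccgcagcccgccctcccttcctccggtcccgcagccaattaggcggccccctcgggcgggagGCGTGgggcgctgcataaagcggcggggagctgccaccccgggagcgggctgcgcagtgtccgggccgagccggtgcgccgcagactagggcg
ALDH1B1 (chr9:38392452-38392751): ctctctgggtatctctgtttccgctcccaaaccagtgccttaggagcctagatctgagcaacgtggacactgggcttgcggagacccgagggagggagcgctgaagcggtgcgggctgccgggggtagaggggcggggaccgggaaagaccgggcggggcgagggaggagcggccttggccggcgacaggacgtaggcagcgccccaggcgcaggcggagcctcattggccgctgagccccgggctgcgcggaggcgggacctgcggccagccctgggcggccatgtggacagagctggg
In the ALDH1A3 promoter the capitals begin at -197 and -43, counted from the start site. Both are rich in G and C, at 81.7% for ALDH1A3 and 71.3% for ALDH1B1, where the median of all 35116 promoter entries was 58.7%.

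ALDH1A3 held 110 CPM at 0 h, 533 and 648 CPM at 4 h, 108 CPM at 12 h, and 35.8 and 25.2 CPM at 36 h. Both 4 h libraries stood well above every other library, and both 36 h libraries below. The 4 h mean was 591 ± 81.4 CPM (SD, n = 2), a log2 fold change of 2.42 (SE 0.276) or 5.35-fold over 0 h. Its 36 h mean of 30.5 ± 7.50 CPM (SD, n = 2) gave log2 fold changes of -4.26 (SE 0.229; 19.2-fold lower) against 4 h and -1.85 (SE 0.238; 3.60-fold lower) against 0 h. At 12 h the log2 difference from 0 h was -0.04 (SE 0.282). With limma on log2(FPKM + 0.1) the 4 h call was lost for ALDH1A3 (adjusted p = 0.0519) and for ALDH1B1 (adjusted p = 0.0544). By size, ALDH1A3 was 143rd from the highest of 15572 genes at 4 h against 0 h and 43rd from the lowest at 36 h against 4 h.

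An antisense lincRNA row within the ALDH1A3 locus (linc-ALDH1A3-AS, XLOC_005642) held 10.8 CPM at 0 h, 26.98 and 23.5 CPM at 4 h, 7.95 CPM at 12 h, and 4.59 and 4.65 CPM at 36 h. It rose at 4 h by 1.22 (SE 0.239) on the log2 scale and was lower at 36 h than at 4 h, with a log2 fold change of -2.45 (SE 0.209). The strand setting of the counting was not given in the sources used here, so fragments of ALDH1A3 and of this row cannot be told apart by strand. ALDH1A3 outnumbered it in fragments at each time, with 25547 against 1073 at 4 h.

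ALDH1B1, a mitochondrial enzyme for acetaldehyde and other short aldehydes, held 46.1 CPM at 0 h, 116 and 107 CPM at 4 h, 43.8 CPM at 12 h, and 20.9 and 18.9 CPM at 36 h. Its 4 h libraries were the highest of the time course and its 36 h libraries the lowest. The log2 fold change was 1.27 (SE 0.201; 2.42-fold) at 4 h against 0 h and -0.07 (SE 0.220) at 12 h against 0 h. It was -1.21 (SE 0.188; 2.31-fold lower) at 36 h against 0 h and -2.48 (SE 0.168; 5.58-fold lower) at 36 h against 4 h. ALDH1B1 thus had the shape of ALDH1A3 with a smaller excursion.

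**Figure D2:**
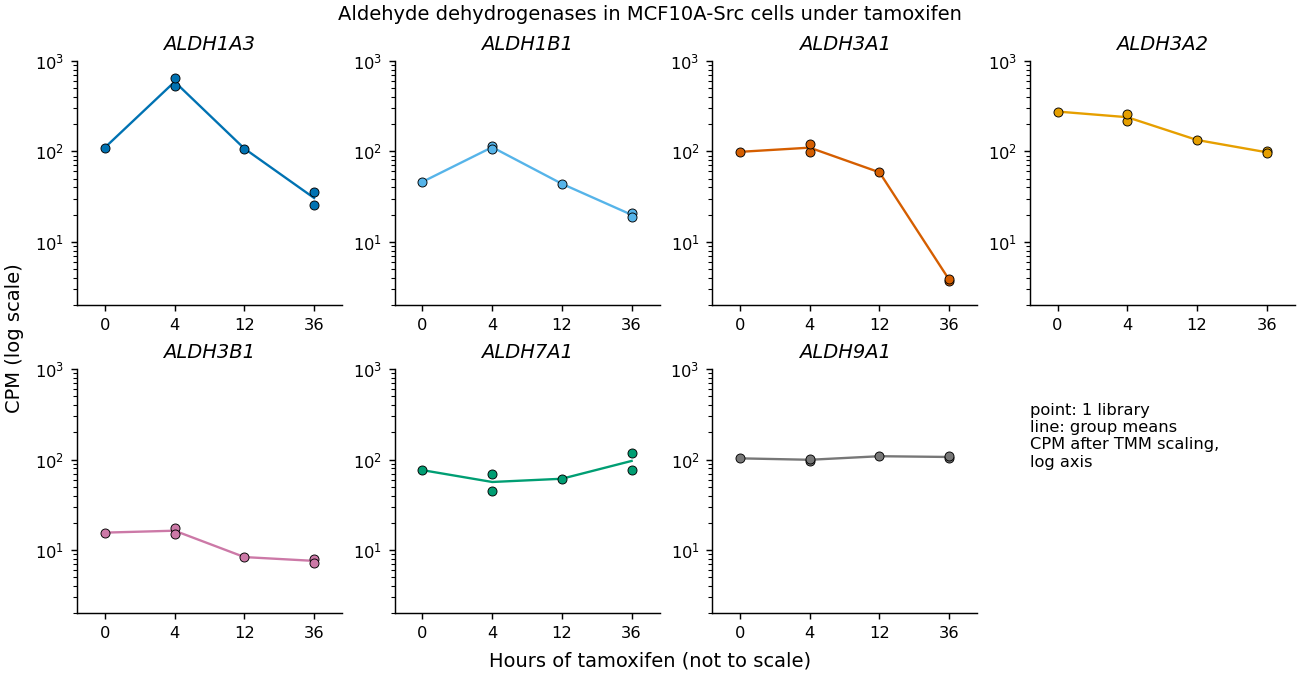
CPM after TMM scaling (y axis, log scale) against hours of tamoxifen (x axis, not to scale) for the 7 tested genes, with a point for each library and a line through group means. ALDH1A3 reaches 533 and 648 CPM at 4 h, ALDH3A1 is at 3.72 and 3.89 CPM at 36 h, and ALDH9A1 stays between 97.3 and 110 CPM.

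ALDH3A1 (row ucscCodingXLOC_010616; hg19 chromosome 17, 19641300 to 19651746), a cytosolic enzyme for aromatic and medium-chain aldehydes that AHR ligands induce in many cells, had the deepest fall of the 9. It held 99.0 CPM at 0 h, 99.1 and 121 CPM at 4 h, 58.7 CPM at 12 h, and 3.72 and 3.89 CPM at 36 h. The 36 h libraries held 77 and 41 fragments, while no earlier library had fewer than 1662. The log2 fold change was -4.86 (SE 0.207; 29.01-fold lower) at 36 h against 4 h and -4.70 (SE 0.220; 26.1-fold lower) at 36 h against 0 h. It ranked 19th from the lowest of 15572 genes in log2 fold change at 36 h against 0 h. At 4 h against 0 h the difference was 0.15 (SE 0.202), and at 12 h against 0 h it was -0.75 (SE 0.234), both not called. In the authors' deposited table ALDH3A1 stands at -0.74 for 12 h over 0 h and is marked significant (q = 0.0329).

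ALDH3A2 (row ucscCodingXLOC_009907; hg19 chromosome 17, 19552064 to 19580908), the fatty aldehyde dehydrogenase of the endoplasmic reticulum, lost level more gradually. It held 276 CPM at 0 h, 216 and 263 CPM at 4 h, 134 CPM at 12 h, and 100.6 and 95.2 CPM at 36 h. The 12 h and 36 h libraries all lay below the 0 h and 4 h libraries. It was the gene called at 12 h against 0 h, with a log2 fold change of -1.05 (SE 0.228; 2.06-fold lower). At 36 h the log2 fold change was -1.50 (SE 0.189; 2.82-fold lower) against 0 h and -1.29 (SE 0.163; 2.44-fold lower) against 4 h. The 12 h call was not made without the second 36 h library (log2 -1.05, adjusted p = 0.0521 by edgeR's QL test). One of its RefSeq promoters is shown because it held the most motif matches of any member's promoter, with GCGTG and the E-box CACGTG in capitals (GRCh38.p14, plus strand).
ALDH3A2 (chr17:19648501-19648800): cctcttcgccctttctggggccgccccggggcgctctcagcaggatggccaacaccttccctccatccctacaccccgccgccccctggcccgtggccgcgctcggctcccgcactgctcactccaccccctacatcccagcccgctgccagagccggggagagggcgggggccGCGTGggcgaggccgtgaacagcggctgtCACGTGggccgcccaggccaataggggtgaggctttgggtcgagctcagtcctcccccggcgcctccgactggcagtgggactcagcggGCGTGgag
GCGTG begins at -76 and 43 and CACGTG at -47, counted from the start site.

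The promoters of 7 members, in 9 entries, were searched on both strands for TGANTCA (AP-1), TTCNNNGAA (STAT), TGACNNNGC (antioxidant response), GCGTG and CACGTG, of which the AP-1 and antioxidant motifs can overlap. GCGTG was found in those of ALDH1A3 and ALDH3A2, and in 36.5% of all 35116 promoter entries. CACGTG was found in those of ALDH3A2 and ALDH3B1, and in 7.26% of all entries. The other 3 motifs, held by 7.71%, 7.66% and 13.3% of all entries, were not found in these windows. ALDH3A1 and ALDH2 were the members with no promoter entry.

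ALDH3B1 (row ucscCodingXLOC_003841; hg19 chromosome 11, 67776048 to 67797396), a membrane-associated enzyme for lipid-derived aldehydes, was the lowest of the tested genes at 0 h. It held 15.6 CPM at 0 h, 17.7 and 15.0 CPM at 4 h, 8.34 CPM at 12 h, and 8.02 and 7.12 CPM at 36 h. The 3 libraries at 12 h and 36 h lay below the other 3. The log2 fold change was -1.03 (SE 0.238; 2.05-fold lower) at 36 h against 0 h and -1.10 (SE 0.207; 2.15-fold lower) at 36 h against 4 h. At 12 h against 0 h the value was -0.90 (SE 0.279), not called. The 36 h against 0 h call was not made when either 36 h library was left out (adjusted p = 0.0656 without the first and 0.129 without the second, edgeR's QL test), nor with limma (adjusted p = 0.0648 with a pseudocount of 1 and 0.0765 with 0.1). The antisense row linc-ALDH3B1-AS held 5.34 CPM at 0 h, 2.44 and 3.10 CPM at 4 h, 3.50 CPM at 12 h, and 3.62 and 2.85 CPM at 36 h, and could not be told apart by strand. ALDH3B1 has a close paralog, ALDH3B2, and how fragments shared by the pair were counted was not stated.

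ALDH9A1 (row ucscCodingXLOC_002078; hg19 chromosome 1, 165631449 to 165667900) was the flattest. It held 103 CPM at 0 h, 97.3 and 102 CPM at 4 h, 109 CPM at 12 h, and 104 and 110 CPM at 36 h. Its log2 difference was 0.10 (SE 0.147) at 36 h against 4 h and 0.05 (SE 0.179) at 36 h against 0 h, and both turned negative without scaling between libraries (-0.15 and -0.31). No call was made in any comparison of times. Its antisense row held at most 2 fragments in a group.

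ALDH7A1 (row ucscCodingXLOC_019369; hg19 chromosome 5, 125878918 to 125931082) was the most variable between replicates of the time course. It held 76.4 CPM at 0 h, 68.6 and 44.5 CPM at 4 h, 61.4 CPM at 12 h, and 76.0 and 117 CPM at 36 h. Both 36 h libraries were above both 4 h libraries, and the first lay at the 0 h level. The log2 difference at 36 h against 4 h was 0.77 (SE 0.268), not called (adjusted p = 0.0518, edgeR's QL test). It was called without the first 36 h library (1.06) or without the first 4 h library (1.11), and also with RLE scaling, with DESeq2 and with no filter on low values. It was 0.43 without the second 36 h library and 0.54 without the second 4 h library. In the authors' deposited table, which gives 4 h over 36 h, ALDH7A1 stands at -1.11 and is marked significant (q = 0.000829). The number of CPM per FPKM for this gene ranged from 1.81 to 2.55 over the 6 libraries, a spread of 1.41 times, while for the other 6 tested genes the spread was 1.06 to 1.08 times. Its antisense row held 0.986 to 1.49 CPM at the 4 times.

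ALDH1A1 (row ucscCodingXLOC_024784; hg19 chromosome 9, 75501145 to 75695358) and ALDH2 (row ucscCodingXLOC_005403; hg19 chromosome 12, 112204346 to 112247782) were barely detected. ALDH1A1, a retinaldehyde enzyme, had 1 fragment at 0 h, 1 at 12 h and 0 in the other 9 libraries. A count of 0 allows up to 3 fragments, or 0.0836 to 0.285 CPM in those libraries, counting error only. ALDH2, the mitochondrial acetaldehyde enzyme, had 2 and 3 fragments in LINC00520 libraries, against 0, 2 and 1 in untransduced libraries. In the time course ALDH2 had 5 fragments at 0 h, 4 and 1 at 4 h, 0 at 12 h, and 6 and 2 at 36 h. Neither gene passed the filter on low values and neither was tested, so 7 of the 9 entered each fit.

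Of these 7 genes, 2 were called higher and none lower at 4 h against 0 h, where 6.24% of all 15572 tested genes were called, 3.15% higher and 3.09% lower. For 12 h against 0 h, 1 was called lower, where 4.24% of all genes were called, 3.04% higher and 1.2% lower. For 36 h against 0 h, 5 were called, all lower, where 19.4% of all genes were called, 9.99% higher and 9.36% lower. For 36 h against 4 h, 5 were called, all lower, where 39.4% of all genes were called, 18.8% higher and 20.5% lower. The 36 h and 4 h libraries did not overlap for any of the 7 genes (5 lower and 2 higher at 36 h), and the same held for 71.1% of all genes. The 9 genes were chosen with results of these data in view and the 3 comparisons with 0 h share 1 library, so these counts are a description and nothing is read from them.

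The median log2 fold change of the 7 genes was -1.21 at 36 h against 0 h and -1.29 at 36 h against 4 h, beside medians of -0.08 and -0.04 over all genes. Without scaling beyond the library total, the medians over all genes moved to -0.43 and -0.29 and those of the 7 genes to -1.56 and -1.54. The split of all calls moved with it. At 36 h against 0 h it was 1556 higher and 1458 lower with scaling and 1016 and 3740 without. At 36 h against 4 h it was 2930 higher and 3200 lower with scaling and 1861 and 4823 without. The 5 members called lower at 36 h were called lower under both, and ALDH7A1 at 36 h against 0 h was 0.34 (SE 0.328) with scaling and -0.03 without.

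**Figure D3:**
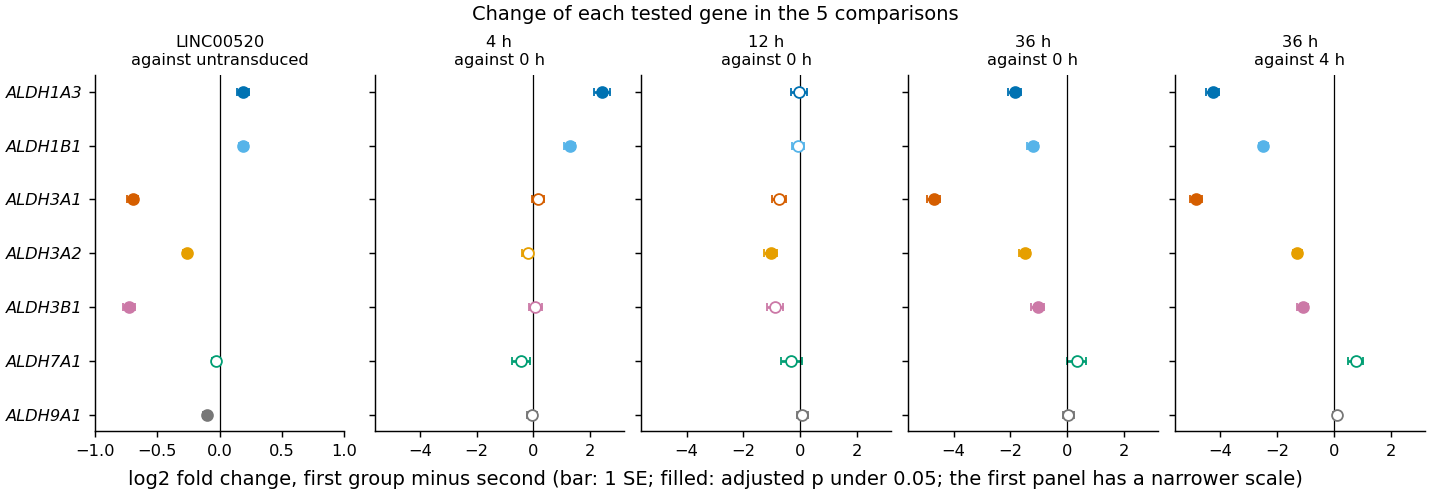
Log2 fold change (x axis, first group minus second) of the 7 tested genes (y axis) in the 5 comparisons, with bars of 1 SE and filled points where the adjusted p was under 0.05. ALDH3A1 lies at -4.70 and -4.86 in the 36 h panels, and the LINC00520 panel has a narrower scale because its values lie between -0.73 and 0.19.

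In LINC00520 cells, ALDH3B1 and ALDH3A1 were lower than in untransduced cells and the other members moved less. ALDH3B1 held 41.5 and 44.9 CPM in LINC00520 libraries, against 69.2, 72.9 and 72.4 CPM in untransduced libraries. The groups were far apart, with a log2 fold change of -0.73 (SE 0.0462; 1.65-fold lower). ALDH3A1 held 48.5 and 51.4 CPM in LINC00520 libraries, against 79.4, 82.7 and 80.9 CPM in untransduced libraries, a log2 fold change of -0.70 (SE 0.0418; 1.62-fold lower). ALDH3B1 and ALDH3A1 were 259th and 293rd from the lowest of 12790 genes. The antisense row linc-ALDH3B1-AS held 3.09 ± 0.401 CPM (SD, n = 2) in LINC00520 cells and 4.45 ± 0.304 CPM (SD, n = 3) in untransduced cells.

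ALDH3A2 held 216 and 214 CPM in LINC00520 libraries, against 254, 263 and 257 CPM in untransduced libraries. The fall was smaller, with a log2 fold change of -0.26 (SE 0.0295; 1.20-fold lower) and no overlap. ALDH9A1 averaged 130.1 ± 1.23 CPM (SD, n = 2) in LINC00520 cells and 139.6 ± 4.76 CPM (SD, n = 3) in untransduced cells, a log2 fold change of -0.10 (SE 0.0343). Its call was lost without any of 4 of the 5 libraries, the first untransduced library being the exception (adjusted p = 0.00169 without it and 0.059 to 0.121 without one of the others, edgeR's QL test). ALDH7A1, at 187 ± 4.47 CPM (SD, n = 2) in LINC00520 cells and 191 ± 2.53 CPM (SD, n = 3) in untransduced cells, overlapped and was not called.

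The pair that peaked at 4 h of tamoxifen was slightly higher with LINC00520. ALDH1A3 held 53.0 and 51.3 CPM in LINC00520 libraries, against 45.9, 46.4 and 44.8 CPM in untransduced libraries, a log2 fold change of 0.19 (SE 0.0456; 1.14-fold). ALDH1B1 held 89.7 and 92.0 CPM in LINC00520 libraries, against 79.4, 79.5 and 80.0 CPM in untransduced libraries, a log2 fold change of 0.19 (SE 0.0352; 1.14-fold). For both genes the groups did not overlap.

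Of the 7 tested genes, 6 were called, 2 higher and 4 lower, where 50.0% of all 12790 genes were called, 25.2% higher and 24.8% lower. The libraries of the 2 groups did not overlap for the same number, 6, and for 66.5% of all genes. The authors' deposited table marks 2 of the 7 as significant, ALDH3A1 (log2 -0.68, q = 0.00123) and ALDH3B1 (log2 -0.73, q = 0.00123), and its other 5 q-values range from 0.0581 for ALDH3A2 to 0.993 for ALDH7A1. The 4 members called lower with LINC00520 include 3 that were lower at 36 h, ALDH3A1, ALDH3A2 and ALDH3B1, while ALDH1A3 and ALDH1B1 were lower at 36 h and slightly higher with LINC00520. The LINC00520 row itself held 1.59 CPM at 0 h and 162 and 202 CPM at 36 h of tamoxifen. It held 46.2 and 46.0 CPM in LINC00520 libraries, which were scaled separately. The comparisons were in different cells and were not tested against each other.

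**Figure D4:**
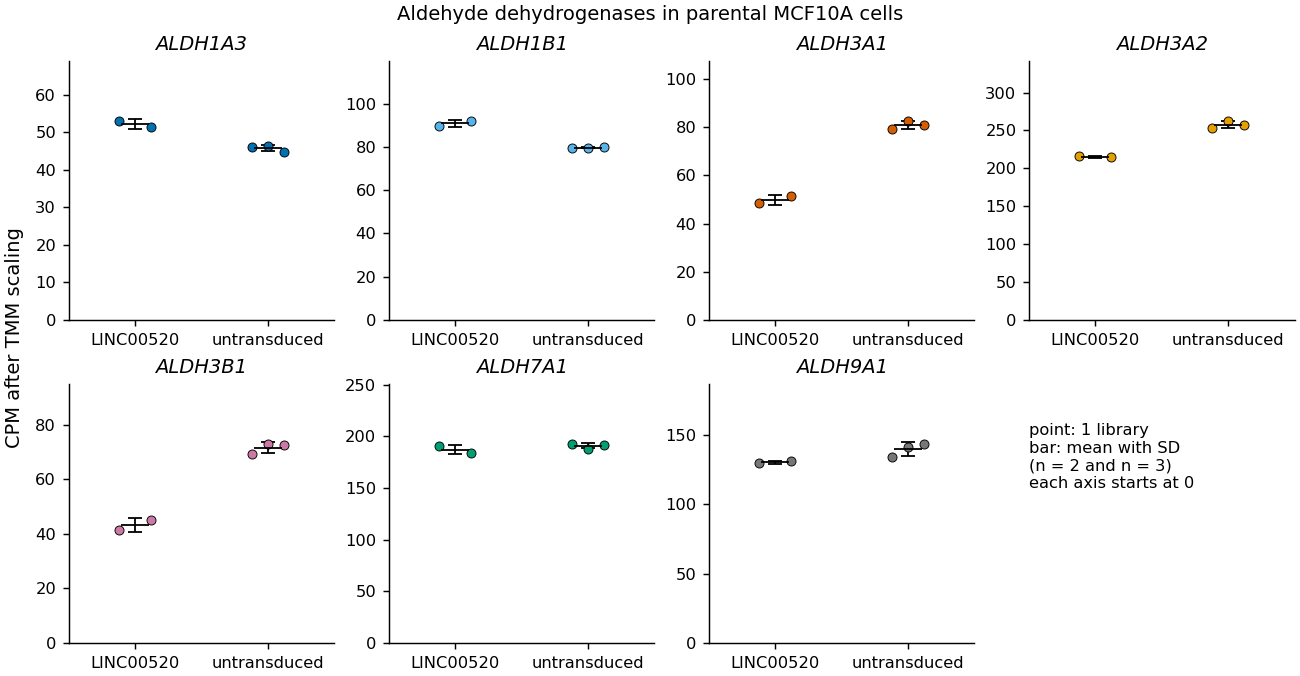
CPM after TMM scaling (y axes, each from 0) of the 7 tested genes in LINC00520 (left, n = 2) and untransduced (right, n = 3) libraries of parental MCF10A, with a point for each library and bars for the mean with SD. ALDH3A1 lies at 48.5 and 51.4 CPM with LINC00520, against 79.4 to 82.7 CPM untransduced, while ALDH7A1 overlaps.

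The other 10 aldehyde dehydrogenase genes were ALDH1A2, ALDH1L1, ALDH1L2, ALDH3B2, ALDH4A1, ALDH5A1, ALDH6A1, ALDH8A1, ALDH16A1 and ALDH18A1, of which 7 passed the filter in each experiment. ALDH1A2, another retinaldehyde enzyme, had 1 to 10 fragments in a group, and ALDH3B2 and ALDH8A1 also stayed below the filter. At 36 h against 4 h, where 20.5% of all 15572 genes were called lower, so were 6 of these 7: ALDH1L1 (-1.81, SE 0.342), ALDH4A1 (-1.77, SE 0.295), ALDH18A1 (-0.65, SE 0.158), ALDH5A1 (-0.61, SE 0.187), ALDH16A1 (-0.57, SE 0.191) and ALDH1L2 (-0.51, SE 0.165). ALDH6A1, of valine breakdown, stood at 0.14 (SE 0.224) and was not called. ALDH1L1 and ALDH1L2 are folate enzymes, ALDH4A1 and ALDH18A1 act in proline breakdown and synthesis, and ALDH5A1 acts in GABA breakdown. Against 0 h, where 9.36% of all genes were called lower at 36 h, so were 4 of the 7, led by ALDH1L1 (-2.26, SE 0.368) and ALDH4A1 (-1.48, SE 0.329), with ALDH1L2 (-0.88, SE 0.195) and ALDH5A1 (-0.77, SE 0.217). With RLE scaling 3 were lower at 36 h against 0 h and 4 at 36 h against 4 h, and none was higher. With limma none was called at 36 h against 0 h at either pseudocount, and 2 were when either 36 h library was left out. For 36 h against 4 h, 3 were called with DESeq2 and with limma, 1 without the first 36 h library and 2 without the second.

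None of these 7 was called at 4 h or 12 h against 0 h, where 6.24% and 4.24% of all genes were called. At 12 h, lower calls were made among the other family genes with DESeq2 and with no filter. With LINC00520, ALDH16A1 was higher (0.41, SE 0.0530) and 4 were lower, ALDH6A1 (-0.76, SE 0.0810), ALDH1L1 (-0.71, SE 0.158), ALDH5A1 (-0.32, SE 0.0750) and ALDH1L2 (-0.10, SE 0.0316). In that comparison 25.2% of all 12790 genes were called higher and 24.8% lower. The median log2 fold change of these 7 was -0.11 with LINC00520, -0.77 at 36 h against 0 h and -0.61 at 36 h against 4 h. ALDH4A1 and ALDH18A1 were not called with LINC00520 (-0.11, SE 0.0872 and 0.03, SE 0.0304).

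Genes that feed, carry or respond to retinoic acid were followed beside ALDH1A3. In the list of retinoic acid breakdown and target genes, 5 of 11 listed genes were tested in the time course. Of these, 1, 3 and 3 were higher at 4 h, 12 h and 36 h against 0 h, with none lower. Over all 15572 genes, 3.15%, 3.04% and 9.99% were called higher in those comparisons. Of the list's 3 calls at 12 h, 1 was made without scaling and with limma at either pseudocount. TGM2, a transglutaminase that retinoic acid induces in many cells, held 6.62 CPM at 0 h, 53.9 CPM at 4 h, 394 CPM at 12 h and 484 CPM at 36 h, group means of 1 or 2 libraries. Its log2 fold changes against 0 h were 3.02 (SE 0.253), 5.89 (SE 0.303) and 6.19 (SE 0.299), and its mean was higher at each later time while that of ALDH1A3 came down after 4 h. DHRS3, which reduces retinaldehyde back to retinol, was higher at 12 h (1.79, SE 0.381; adjusted p = 0.0423) and 36 h (2.61, SE 0.359), CYP26B1, a retinoic acid hydroxylase, at 12 h (1.44, SE 0.322; adjusted p = 0.0496, edgeR's QL test), and RARRES1 at 36 h (1.76, SE 0.413). The list's median log2 fold change was 0.49, 1.44 and 1.76 at 4 h, 12 h and 36 h against 0 h, beside 0.01, -0.03 and -0.08 over all genes.

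With LINC00520, 2 of 6 tested genes of that list were lower, DHRS3 (-0.37, SE 0.0617) and TGM2 (-0.36, SE 0.0945). Over all 12790 genes, 24.8% were called lower and 25.2% higher. The list's 2 calls became 1 with limma and a pseudocount of 0.1 or without the first LINC00520 library. Of 6 tested genes among 16 listed for retinoid synthesis and transport, 2 were higher and 3 lower at 36 h against 4 h. Their median log2 fold change was -0.66. In that comparison 18.8% of all genes were called higher and 20.5% lower. The 5 calls in this list became 3 with limma and a pseudocount of 0.1, and 2 when either 36 h library was left out. DHRS3, which the lists share, stood at 2.12 (SE 0.283) and RDH11, a retinal reductase, at 0.69 (SE 0.174). CRABP2 (-1.65, SE 0.356) and FABP5, both fatty acid binding family carriers of retinoic acid, and RDH10 (-0.75, SE 0.189), which makes retinaldehyde, were lower. FABP5 was also lower at 36 h against 0 h (-1.07, SE 0.248). At 4 h none of these 6 was called. With LINC00520, FABP5 (0.40, SE 0.0536), CRABP2 (0.52, SE 0.131) and RDH11 (0.10, SE 0.0330) were higher and DHRS3 was lower.

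Among 6 tested of 8 listed receptor and co-regulator genes, PPARD, a nuclear receptor for fatty acids, was the single call at each of 3 comparisons. It held 8.93 CPM at 0 h, 33.9 CPM at 4 h and 18.4 CPM at 36 h, group means. Its log2 fold change was 1.92 (SE 0.307) at 4 h against 0 h, 1.04 (SE 0.297) at 36 h against 0 h and -0.89 (SE 0.235) at 36 h against 4 h. Of all 15572 genes, 3.15% and 9.99% were called higher at 4 h and 36 h against 0 h. At 36 h against 4 h, 20.5% were called lower and 18.8% higher. Without scaling, none of the 6 was called higher and 1 was called lower at 36 h against 0 h. With limma at either pseudocount none was called at 4 h or 36 h against 0 h. Leaving out either 36 h library left none at 36 h against 0 h, and leaving out the first 4 h library gave 1 higher and 2 lower at 4 h against 0 h. None was called at 36 h against 4 h without the first 36 h library. With LINC00520, RXRA (-0.27, SE 0.0521), RXRB (-0.24, SE 0.0499) and RARG (-0.17, SE 0.0437) were lower and none was higher, with a median of -0.08. Of all 12790 genes, 24.8% were called lower and 25.2% higher with LINC00520.

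ALDH3A1 is often grouped with targets of the aryl hydrocarbon receptor AHR, and 6 of 10 listed genes of that pathway were tested, with a median log2 fold change of -0.44 at 36 h against 0 h. At 36 h NQO1, a quinone reductase, stood at 125 CPM, against 560 CPM at 0 h, a log2 fold change of -2.16 (SE 0.213). AHR itself stood at 62.1 CPM at 36 h, against 130 CPM at 0 h, a log2 fold change of -1.06 (SE 0.181). At 36 h against 4 h NQO1 (-2.31, SE 0.190) and AHR (-0.94, SE 0.154) were lower and ARNT, its partner, was higher (0.93, SE 0.163), while none of the 6 was called at 4 h or 12 h against 0 h. CYP1B1, a further known target, was -0.51 (SE 0.183) at 36 h against 4 h and not called. With LINC00520, CYP1B1 (-0.88, SE 0.0518), NQO1 (-0.28, SE 0.0273) and ARNT (-0.15, SE 0.0387) were lower and TIPARP (0.25, SE 0.0336) was higher.

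Enzymes outside the family that also clear aldehydes or ketones were followed as well. Of 11 tested among 16 listed, 6 were lower and 1 higher at 36 h against 4 h, where 20.5% of all genes were called lower and 18.8% higher. At 36 h against 0 h, 4 were lower and 1 higher, where 9.36% of all genes were called lower and 9.99% higher. The 5 calls against 0 h became 3 with DESeq2, 1 or 0 with limma and a pseudocount of 1 or 0.1, and 1 or 2 without the first or second 36 h library. The median log2 fold change was -0.68 against 4 h and -0.49 against 0 h, beside -0.04 and -0.08 over all genes. CBR3 (-2.13, SE 0.407) and CBR1 (-1.03, SE 0.167) are carbonyl reductases, and AKR1B10 (-1.45, SE 0.257) and AKR1C2 (-1.38, SE 0.256) are aldo-keto reductases, all values at 36 h against 4 h. PTGR1, a reductase for lipid-derived aldehydes and ketones, was higher at 36 h against 0 h (0.94, SE 0.242), a call not made without scaling, when 6 of the 11 were lower and none higher. With LINC00520, 7 of 11 were lower, with AKR1C2 (-1.05, SE 0.0488) and AKR1B10 (-1.04, SE 0.126) falling most. A further 2 were higher, AOX1, an aldehyde oxidase, with 0.56 (SE 0.0400). Of all 12790 genes in that comparison, 24.8% were called lower and 25.2% higher. Fragments of AKR1C2 may be shared with its close paralogs, whose handling was not stated.

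Of 12 listed genes that produce aldehydes, 3 were tested. MAOA, a monoamine oxidase, held 244 CPM at 36 h, against 109 CPM at 0 h, a log2 fold change of 1.16 (SE 0.227). SMOX, a spermine oxidase, held 30.8 CPM at 36 h, against 12.3 CPM at 0 h, a log2 fold change of 1.33 (SE 0.275). Both were lower with LINC00520, with log2 fold changes of -0.61 (SE 0.0364) for MAOA and -0.53 (SE 0.0618) for SMOX. In that comparison 24.8% of all 12790 genes were called lower and 25.2% higher. SGPL1, the sphingosine phosphate lyase that releases a long-chain aldehyde, was lower at 36 h against 4 h (-0.64, SE 0.147) and was not called at 36 h against 0 h (-0.24, SE 0.178). Of the 3, 2 were called higher and 1 lower at 36 h against 4 h, where 18.8% of all genes were called higher and 20.5% lower. The 2 calls at 36 h against 0 h stand beside 9.99% of all genes called higher. Neither was made with limma and a pseudocount of 0.1, and 1 was made without the first 36 h library.

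The genes most like ALDH3A1 and ALDH1A3 over the 6 tamoxifen libraries were found by the root mean square difference of log2(CPM + 1), centred on each gene's mean, among 10840 genes. For ALDH3A1, which ranged over 4.69 on that scale, they were SLC7A5 (0.64), FGFBP1 (0.78) and TRNP1 (0.81). SLC7A5 held 142 CPM at 0 h, 196 and 146 CPM at 4 h, 109 CPM at 12 h, and 18.98 and 15.4 CPM at 36 h, a shallower fall than that of ALDH3A1. For ALDH1A3, which ranged over 4.63, they were NHS (0.46), PGBD5 (0.51) and JUB (0.54). PGBD5 held 17.4 CPM at 0 h, 84.4 and 65.3 CPM at 4 h, 31.7 CPM at 12 h, and 6.76 and 5.69 CPM at 36 h. These genes share the libraries and their scaling with the members, and the likeness is a description over 6 libraries.

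**Figure D5:**
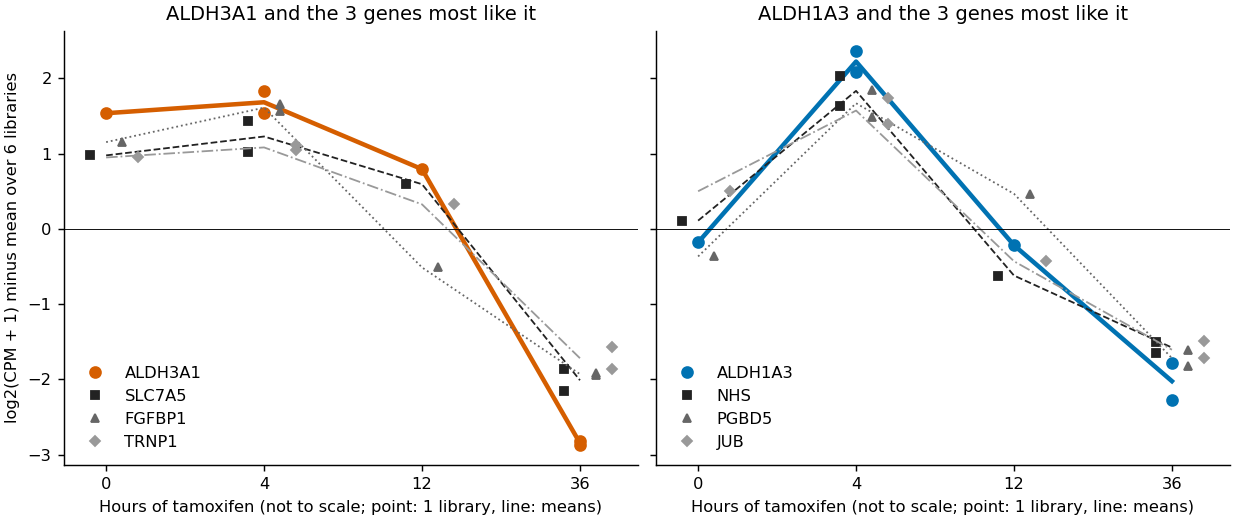
Centred log2(CPM + 1) (y axis) against hours of tamoxifen (x axis, not to scale) for ALDH3A1 (left) and ALDH1A3 (right) with the 3 genes most like each, a point for each library and lines through group means. ALDH3A1 drops further at 36 h than SLC7A5, FGFBP1 and TRNP1, whose differences from it are 0.64 to 0.81.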

How the data were processed

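PolyA RNA-seq was base-called with CASAVA 1.4, aligned to hg19 with TopHat and quantified with Cuffdiff, per the submitters' processing notes. Other versions, the annotation and the strand are not given in the sources used here. Per the file headers, the authors' tables hold an estimated count of fragments for each gene and library, and FPKM. The authors' deposited comparison tables hold a p-value, a q-value and a log2 fold change. The time-course score values, deposited by the authors under a log2 fold change heading, were log2-transformed by the authors before deposit and are printed as deposited. The column was treated as a score, since a few of its values are beyond the range of a log2. For the 7 tested genes, its values match log2 ratios of the deposited group mean FPKM. ALDH3A1, for example, had 59.4 FPKM at 0 h and 2.40 FPKM at 36 h, and stands at -4.63 for 36 h over 0 h.

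By the names of conditions, 11 of 13 samples could be matched. The 2 control lincRNA samples were not analysed here, and 7 further libraries that match no label were not used. LINC00520 was the row linc-TBPL2-2, its condition being named by the older symbol C14orf34. P-values measure the spread between libraries, which may be technical.

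Estimated counts were rounded (92.4% to 99.9% were whole). A gene was kept with status OK throughout (22 and 59 rows were not) and an FPKM of 1 or above in 2 over-expression libraries (12790 genes) or 1 time-course library (15572 genes). edgeR's quasi-likelihood test was run on all of them with TMM scaling and Benjamini-Hochberg adjustment, two-sided, with 1 fit for each experiment. SE is the log2 fold change over the root of F. The common coefficient of variation was 0.0249 (3 residual degrees of freedom) for over-expression and 0.162 (2) for the time course, where the spread of the single 0 h and 12 h libraries was taken from the 4 h and 36 h pairs. Between replicates the chi-square of counts was 1.63 to 13.7 times its median under counting noise, so none was treated as a duplicate. Locus starts were read as counted from 0 and printed from 1, since locus spans then matched reference transcript spans for more genes (900 against 692).

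The members and the gene lists were chosen with earlier results of these data known. All family genes are named, and of each other list up to 4 genes with the smallest p in a comparison with a call, plus those that complete a count. A few listed genes are not reported here. Depth was 12.6 to 52.3 M fragments. Alternatives were scaling, filter, tool, pseudocount, replicate block and left-out libraries. Software was matplotlib 3.10.9, pandas 2.3.3, numpy 2.4.6 and Python 3.11.15, with DESeq2 1.42.0, limma 3.58.1, edgeR 4.0.16 and R 4.3.3.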

Additional observations from a re-analysis of the deposited data

How the results depend on the processing

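Alternatives were RLE scaling, no scaling beyond the total, no filter on low values, DESeq2, limma on log2(FPKM + 1) and on log2(FPKM + 0.1), a replicate block, and leaving out each library. Of 19 calls of single members, 14 held under every alternative run, and no value with a call changed sign. For 4 h against 0 h, 2 members were called, and 0 with limma and a pseudocount of 0.1. For 12 h against 0 h, 1 was called, and 0 with limma and either pseudocount. There, leaving out a library gave 0 (without the second 36 h library) to 3 (without either 4 h library, when ALDH3A1 and ALDH3B1 were also called). Leaving out a library gave 5 to 6 of 7 with LINC00520, 2 to 3 at 4 h against 0 h, 4 to 5 at 36 h against 0 h and 5 to 6 at 36 h against 4 h.

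Counts over all genes moved by more than 1.5 times in some settings, given here as higher and lower calls. For 4 h against 0 h they were 491 and 481, but 95 and 85 with limma, 78 and 80 with limma and a pseudocount of 0.1, 1234 and 1560 with no filter, 1948 and 2427 without the first 4 h library, and 1104 and 994 without the second. For 12 h against 0 h they were 474 and 187, but 150 and 73 with limma, 174 and 78 with its lower pseudocount, 1026 and 691 with no filter, and 1475 and 1332 or 1530 and 1180 without the first or second 4 h library. For 36 h against 0 h they were 1556 and 1458, but 1015 and 539 with limma, 905 and 415 with its lower pseudocount, 2224 and 2842 with no filter, 2708 and 3393 or 2927 and 3061 without the first or second 4 h library, and 1078 and 755 without the second 36 h library. For 36 h against 4 h they were 2930 and 3200, but 1879 and 1892 or 1873 and 1677 without the first or second 36 h library. The cause was not tested.

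Replicate numbers were not found to pair libraries (correlations of deviations -0.0566 and -0.0468 in the over-expression experiment, 0.102 between 36 h and 4 h). With the replicate number as a block, 5 members were called with LINC00520 (ALDH9A1 was not) and 5 at 36 h against 4 h. Comparisons with 0 h or 12 h rest on 1 library of that time, and none could be repeated without it.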
